A study of Populus alba x Populus glandulosa with 12 samples.

Results

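Stomata are pores in the leaf epidermis, each made of a pair of guard cells, and poplar copies of 10 Arabidopsis genes that build or tune them were measured. The material was leaf RNA of a hybrid poplar, Populus alba × P. glandulosa. Members were all genes that the deposited table pairs with SPCH (AT5G53210), MUTE (AT3G06120), FAMA (AT3G24140), SCRM (AT3G26744, also called ICE1), TMM (AT1G80080), SDD1 (AT1G04110), EPF1 (AT2G20875), EPF2 (AT1G34245), EPFL9 (AT4G12970, STOMAGEN) or HT1 (AT1G62400). The rule found 21 poplar copies among 34749 genes, with at least 1 copy of every locus and 4 copies each of SDD1 and HT1. Leaf RNA was sequenced in 12 libraries: 4 from nontransgenic control plants (CK), 4 from line 2 and 4 from line 7 of plants overexpressing (OE) PagSUPa, a C2H2-type zinc finger protein that the study's title links to cell division in the leaf. Each OE line is 1 transgenic line, and the sources used here do not give the transgene's promoter, the age of the leaves or the number of plants per library. What the p-values weigh is therefore the spread among these libraries, which may be technical.

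In Arabidopsis, the source of the roles named here, stomata arise from a short lineage of dividing epidermal cells. The transcription factors SPCH, MUTE and FAMA act in turn: SPCH starts the lineage, MUTE ends its asymmetric divisions, and FAMA sets the fate of the guard cells. SCRM pairs with each of them. Secreted peptides set the spacing through receptor kinases of the ERECTA family and the receptor-like protein TMM, with EPF1 and EPF2 restricting the lineage and EPFL9, made in the mesophyll below, promoting it. SDD1 is a subtilisin-type protease that lowers stomatal density. HT1 is a kinase of mature guard cells that takes part in the response to carbon dioxide.

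Values are TPM, a transcript-length-scaled share of each library's transcripts scaled to a fixed total, so that a rise of some genes lowers all others. The sequencing depth of each library is unknown. Members were tested with limma on log2(TPM + 1) in a fit over 24926 genes that reached a TPM of 1 in at least 4 libraries, with p-values adjusted over all of these genes. Each fold change (FC) is a difference of log2(TPM + 1) means, and the added 1 shrinks the changes of low genes. The median log2 FC of all genes was -0.13 in OE leaves, and median ratio scaling moved it to -0.01, so directions of small changes are relative to that shift. CK replicates 1 and 2 stood apart in scale, with median ratio factors of 1.19 and 1.17 where the other libraries had 0.881 to 1.05. Member calls in both lines together that rest on them, and list counts, are also given without both. The homolog of ZFP11, a zinc finger gene of the SUPERMAN family, was at 0 to 0.112 TPM in CK and 1210 to 1714 TPM in OE libraries, which matches the labels. Whether it is the introduced gene is not shown here. In bulk leaf RNA, fewer cells of a type and less RNA per cell cannot be told apart.

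Copies of FAMA, SCRM, SDD1, EPF1, EPFL9 and HT1 were called lower in OE leaves, and no copy of the set was called higher. The largest change was in EPFL9, whose mean TPM was 48.8 ± 24.8 in CK, 4.94 ± 4.32 for line 2 and 7.55 ± 5.87 for line 7 (SD over 4 libraries). Of the 21 copies, 12 passed the filter and 8 of these were lower in both OE lines together at an adjusted p under 0.05, or 66.7%, where 56.1% of all tested genes were called, 34% lower and 22.1% higher. All 12 copies had a negative log2 FC, with a median of -0.80. The 8 were 1 copy of FAMA, both of SCRM, and 1 each of SDD1, EPF1 and EPFL9, with 2 of HT1. The filter depends on the values, so these shares describe the copies that passed it and are no test of the set. In 5 of the 12 copies every OE library lay below every CK library, against 19.1% of all tested genes. Without CK replicates 1 and 2, 6 copies were called lower, where 14.2% of all tested genes were.

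**Figure D1:**
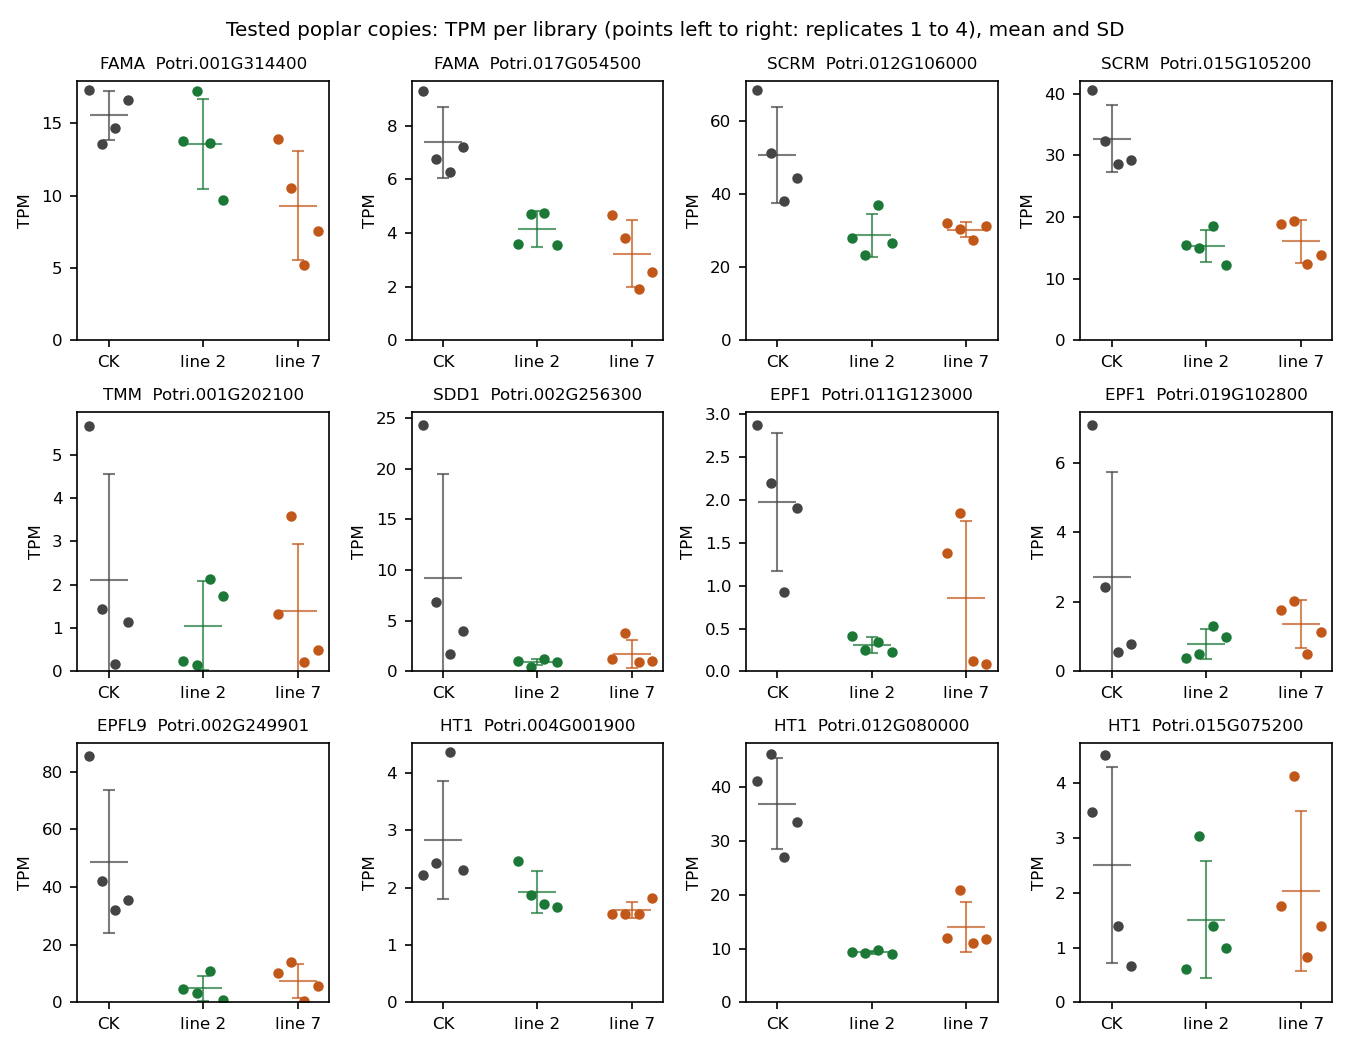
TPM of the 12 copies that passed the expression filter, with 1 panel per copy. Points are libraries (replicates 1 to 4 from left to right), horizontal marks are group means and bars are SD (n = 4); OE libraries of EPFL9 reached at most 13.9 TPM and CK libraries at least 32.1 TPM, whereas the groups overlap for TMM.

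The 2 copies of SPCH, the factor that starts the lineage, were barely detected in any group. Potri.012G031800 was at 0.383, 0.160, 0.017 and 0.057 TPM in CK replicates 1 to 4. In line 2 it was at 0.040, 0.143, 0.408 and 0.240 TPM, and in line 7 at 0.365, 0.380, 0.079 and 0.257 TPM. The groups overlapped fully, and an exact two-sided permutation test gave a log2 difference of 0.10 between OE and CK (p = 0.343, unadjusted). The second copy, Potri.015G022300, was at 0.247, 0.025, 0 and 0.069 TPM in CK, was listed at 0 in every line 2 library and in 2 of line 7, and reached 0.1 TPM in line 7 replicate 2 (exact p = 0.107). Without line 7 replicate 2 the log2 difference of Potri.015G022300 was -0.11 (exact p = 0.0242, unadjusted). Neither copy passed the filter, and neither difference passed in all libraries.

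MUTE, which ends the asymmetric divisions, had 1 copy, Potri.008G202900, also below the filter. Its CK values were 0.867, 0.431, 0 and 0.270 TPM. Line 2 libraries were at 0, 0.057, 0 and 0.151 TPM and line 7 libraries at 0, 0.194, 0 and 0.068 TPM. CK replicate 3, listed at 0, lay within the OE range, while the 3 other controls lay above all 8 OE libraries. The log2 difference was -0.36 (exact permutation p = 0.0222, unadjusted among 24 such comparisons of 8 low copies; the limma fit with no filter, over 34749 genes, gave adjusted p = 0.0407). Without CK replicate 1 the log2 difference of this gene was -0.21 (exact p = 0.0667), and without CK replicates 1 and 2 it was -0.09 (exact p = 0.467).

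FAMA, the last of the 3 factors, was more abundant, and 1 of its 2 copies was called lower in both lines together. Potri.017G054500 was at 9.28, 6.75, 6.29 and 7.19 TPM in CK, 3.61, 4.71, 4.76 and 3.56 TPM in line 2, and 4.67, 3.83, 1.91 and 2.54 TPM in line 7. Every OE library lay below every CK library. This copy fell in both lines together (log2 FC -0.86, SE 0.18, limma adjusted p = 0.00209). The log2 FC was -0.70 for line 2 (adjusted p = 0.015) and -1.02 for line 7 (adjusted p = 0.00303). The line 2 call of Potri.017G054500 was lost without CK replicates 1 and 2 (adjusted p = 0.106). The more abundant copy, Potri.001G314400, was at 17.3, 13.6, 14.7 and 16.6 TPM in CK, 13.8, 17.2, 13.6 and 9.67 TPM in line 2, and 13.9, 10.5, 5.22 and 7.56 TPM in line 7. Its line 2 values lay mostly within the control range, and 3 of the 4 line 7 values lay below it. In line 2 the log2 FC was -0.20 (95% confidence interval -0.74 to 0.34, adjusted p = 0.505), in line 7 it was -0.75 (interval -1.29 to -0.21, adjusted p = 0.0293), and for both lines it was -0.48 (adjusted p = 0.075, or 0.0228 without line 7 replicate 1). The line 7 call of Potri.001G314400 was lost without CK replicate 1, CK replicate 4, or line 7 replicate 3 or 4 (adjusted p from 0.0591 to 0.0751), and without CK replicates 1 and 2 (adjusted p = 0.123). Between the lines its log2 difference was -0.55 (unadjusted p = 0.0463, limma adjusted p = 0.999999), which did not pass.

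SCRM, the partner of the 3 factors and in Arabidopsis also a regulator of cold response, was the most abundant of the transcription factors, and both copies fell. Potri.015G105200 was at 40.6, 32.4, 28.6 and 29.3 TPM in CK, 15.5, 14.97, 18.6 and 12.2 TPM in line 2, and 18.8, 19.3, 12.3 and 13.8 TPM in line 7. The groups did not overlap, with a gap from 19.3 TPM in the highest OE library to 28.6 TPM in the lowest control. The log2 FC was -1.02 in both lines (SE 0.15, limma adjusted p = 0.000335), with -1.05 (adjusted p = 0.000895) for line 2 and -0.99 (adjusted p = 0.00163) for line 7. Potri.012G106000 was at 68.4, 51.2, 38.1 and 44.2 TPM in CK, 27.9, 23.3, 36.9 and 26.5 TPM in line 2, and 32.0, 30.4, 27.4 and 31.3 TPM in line 7. Here the gap was small, since line 2 replicate 3 lay just under CK replicate 3. The log2 FC was -0.74 (SE 0.16, adjusted p = 0.00255) in both lines. It was, without CK replicates 1 and 2, -0.48 (adjusted p = 0.0486) for Potri.012G106000 and -0.86 (adjusted p = 0.0112) for Potri.015G105200.

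TMM, the receptor-like protein that works with ERECTA receptors, had 1 copy, Potri.001G202100, whose libraries differed more within groups than between them. It was at 5.68, 1.45, 0.161 and 1.14 TPM in CK, 0.232, 0.138, 2.14 and 1.73 TPM in line 2, and 1.32, 3.59, 0.213 and 0.498 TPM in line 7. All OE libraries but 1 lay inside the control range. The log2 FC in both lines was -0.35 (95% confidence interval -1.42 to 0.72, adjusted p = 0.553), an interval that spans falls and rises, and its sign turned without CK replicate 1 (0.11).

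SDD1, the protease, had 4 copies, of which 3 (Potri.003G118700, Potri.003G118800 and Potri.T004700) did not exceed 0.215 TPM anywhere. The expressed copy, Potri.002G256300, was at 24.3, 6.88, 1.74 and 4.02 TPM in CK, 1.04, 0.483, 1.22 and 0.881 TPM in line 2, and 1.25, 3.77, 0.931 and 0.998 TPM in line 7. Controls spread widely, CK replicate 1 being the highest, and line 7 replicate 2 was the only OE library above the lowest control. SDD1 fell in both lines together (log2 FC -1.73, SE 0.48, limma adjusted p = 0.00995), with -1.94 for line 2 (adjusted p = 0.013) and -1.51 for line 7 (adjusted p = 0.0435). Without CK replicate 1 the log2 FC of Potri.002G256300 in both lines was -1.12 (adjusted p = 0.022), and without CK replicates 1 and 2 it was -0.76 (adjusted p = 0.126). The line 7 call of Potri.002G256300 was lost in 9 of 16 alternatives.

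The peptide genes gave the largest change. EPFL9, which promotes stomata, had 1 copy, Potri.002G249901, at 85.5, 42.2, 32.1 and 35.4 TPM in CK. In line 2 it was at 4.78, 3.35, 10.9 and 0.718 TPM, and in line 7 at 10.4, 13.9, 0.373 and 5.57 TPM. Every OE library lay below every control, with wide spread among OE libraries: line 2 replicate 4 and line 7 replicate 3 were under 1 TPM. EPFL9 fell in both lines together (log2 FC -3.08, SE 0.63, limma adjusted p = 0.00213). In line 2 the log2 FC was -3.27 (95% confidence interval -4.88 to -1.67, adjusted p = 0.00407) and in line 7 -2.88 (interval -4.49 to -1.28, adjusted p = 0.00986). The log2 FC of Potri.002G249901 in both lines was -2.67 without CK replicates 1 and 2 (adjusted p = 0.0469), while the lines alone missed the threshold (adjusted p = 0.0527 and 0.0962).

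EPF1, which restricts divisions late in the lineage, had 3 low copies. Potri.011G123000 was at 2.88, 2.20, 0.927 and 1.91 TPM in CK, 0.415, 0.247, 0.347 and 0.225 TPM in line 2, and 1.38, 1.85, 0.117 and 0.085 TPM in line 7. All line 2 libraries lay below the controls, while line 7 split, replicates 1 and 2 lying within the control range and replicates 3 and 4 below it. This copy fell in both lines together (log2 FC -0.96, SE 0.28, limma adjusted p = 0.0123) and in line 2 (-1.14, adjusted p = 0.0119), and in line 7 the log2 FC was -0.77 (interval -1.47 to -0.07, adjusted p = 0.0684). Without CK replicates 1 and 2 the log2 FC of Potri.011G123000 was -0.67 (adjusted p = 0.181), and it was -2.0 and -0.32 with pseudocounts of 0.1 and 5. With the replicate number as a block its line 7 adjusted p was 0.0381. Potri.019G102800 was at 7.07, 2.44, 0.568 and 0.794 TPM in CK, 0.374, 0.500, 1.30 and 1.002 TPM in line 2, and 1.77, 2.03, 0.490 and 1.14 TPM in line 7. The OE libraries overlapped CK replicates 3 and 4, and the log2 FC was -0.57 (interval -1.43 to 0.28, adjusted p = 0.223), or 0.25 (adjusted p = 0.508) without CK replicates 1 and 2.

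The third EPF1 copy, Potri.013G136100, lay below the filter, at 3.17, 1.40, 0.076 and 0.659 TPM in CK and from 0 to 0.710 TPM in OE libraries. Its log2 difference was -0.84 (exact permutation p = 0.0182, unadjusted; adjusted p = 0.0345 in the unfiltered limma fit), and -0.22 (exact p = 0.467) without CK replicates 1 and 2. EPF2, which restricts entry into the lineage, had 1 copy, Potri.013G116600, at 0.229, 0.076, 0 and 0.071 TPM in CK and listed at 0 in 6 of the 8 OE libraries, with 0.048 and 0.051 TPM in the others. EPF2 was thus at the edge of detection in all groups (exact p = 0.0222, unadjusted, and adjusted p = 0.071 in the unfiltered limma fit). Without CK replicates 1 and 2 its exact p was 0.222.

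Because EPFL9 competes with the EPF peptides for the same receptors in Arabidopsis, its level was set against theirs in each library, with no test. The ratio of EPFL9 TPM to the summed TPM of the EPF1 and EPF2 copies was 6.41, 6.90, 20.4 and 10.3 in CK. In line 2 it was 6.05, 3.93, 6.65 and 0.540, and in line 7 it was 2.89, 2.99, 0.562 and 4.57. All line 7 ratios lay below the controls, and line 2 replicate 3 lay just above the lowest control. The summed EPF1 and EPF2 level was 13.3, 6.12, 1.57 and 3.43 TPM in CK and from 0.664 to 4.64 TPM in OE libraries, so those groups overlapped where the EPFL9 levels did not.

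**Figure D2:**
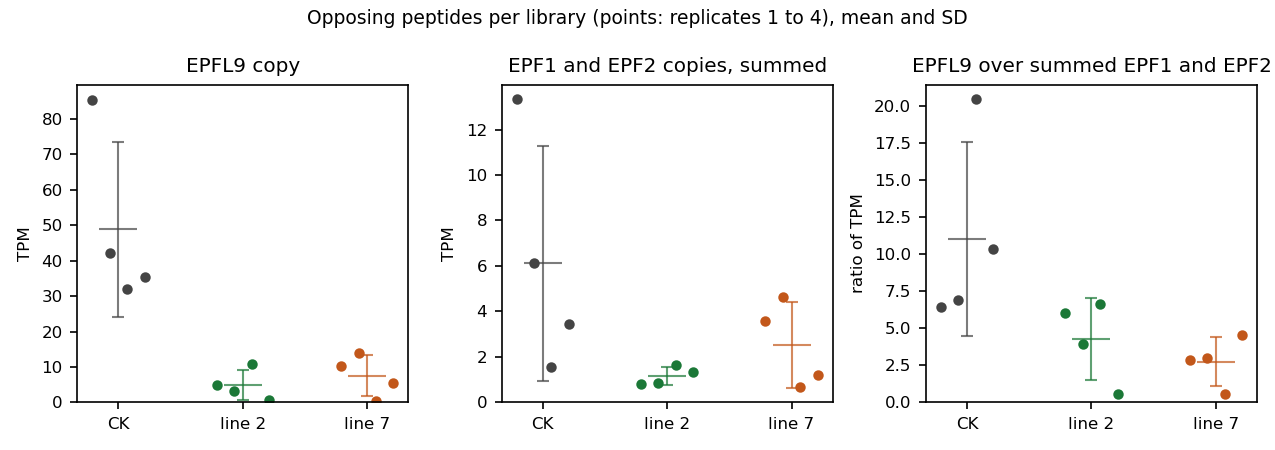
EPFL9, the summed EPF1 and EPF2 copies (both in TPM) and the ratio of the first to the second, per library. Points are replicates 1 to 4, horizontal marks are means and bars SD (n = 4 per group); the EPFL9 groups are apart, whereas the summed EPF1 and EPF2 levels overlap.

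HT1, the guard cell kinase, had 4 copies, and 1 of them carried most of its RNA. Potri.012G080000 was at 41.2, 46.3, 27.0 and 33.6 TPM in CK, 9.33, 9.22, 9.68 and 8.94 TPM in line 2, and 11.98, 20.9, 11.1 and 11.9 TPM in line 7. All OE libraries lay below all controls, and line 2 libraries lay within 1 TPM of each other. It had the smallest adjusted p of the set (log2 FC -1.61, SE 0.18, limma adjusted p = 4.34e-05), with -1.86 in line 2 and -1.36 in line 7 (adjusted p = 6.39e-05 and 0.000573). Line 7 lay above line 2 by 0.49 on the log2 scale (unadjusted p = 0.0321, adjusted p = 0.999999), which did not pass.

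The minor HT1 copies gave mixed results. Potri.011G022800 lay below the filter, at 1.20, 1.45, 1.08 and 0.922 TPM in CK and from 0.223 to 0.546 TPM in OE libraries, with no overlap. Its exact permutation p of 0.00202 was the smallest that 8 against 4 libraries allow, and its adjusted p in the unfiltered limma fit was 0.000159. Potri.004G001900 was at 2.22, 2.44, 4.37 and 2.30 TPM in CK, from 1.66 to 2.47 TPM in line 2 and from 1.54 to 1.83 TPM in line 7. It passed in both lines together (log2 FC -0.44, adjusted p = 0.0226), but not under median ratio scaling (-0.34, adjusted p = 0.0997), quantile normalization (-0.29, adjusted p = 0.188) or without CK replicate 3 (-0.26, adjusted p = 0.0585). In line 7 its log2 FC was -0.52 (adjusted p = 0.027), a call lost under both scalings (adjusted p = 0.0723 and 0.116) and without line 7 replicate 1, 2 or 3 (adjusted p from 0.0506 to 0.0596). Potri.015G075200 was at 3.46, 4.52, 1.38 and 0.667 TPM in CK and from 0.604 to 4.13 TPM in OE libraries. Its groups overlapped almost fully (log2 FC -0.29, interval -1.10 to 0.52, adjusted p = 0.52).

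The lines were compared with CK one at a time and with each other. Line 2 had 7 copies called lower and 0 higher, where 51.2% of all tested genes were called and 32.4% were lower. Line 7 had 8 lower and 0 higher, where 43.8% of all tested genes were called and 24.8% were lower. These comparisons share their controls. FAMA Potri.017G054500, both SCRM copies, SDD1 Potri.002G256300, EPFL9 and HT1 Potri.012G080000 were called in each line. Without CK replicates 1 and 2 the counts were 2 in line 2 and 4 in line 7, and without line 7 replicate 3 the line 7 count was 5. SCRM Potri.012G106000 was called in neither line without CK replicates 1 and 2 (adjusted p = 0.0508 in line 2 and 0.106 in line 7). Between line 7 and line 2, 0 of the 12 copies and 0 of 24926 genes (0%) passed, and 2 copies and 418 genes had an unadjusted limma p under 0.05. These 2 copies were FAMA Potri.001G314400, lower in line 7, and HT1 Potri.012G080000, higher in line 7.

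**Figure D3:**
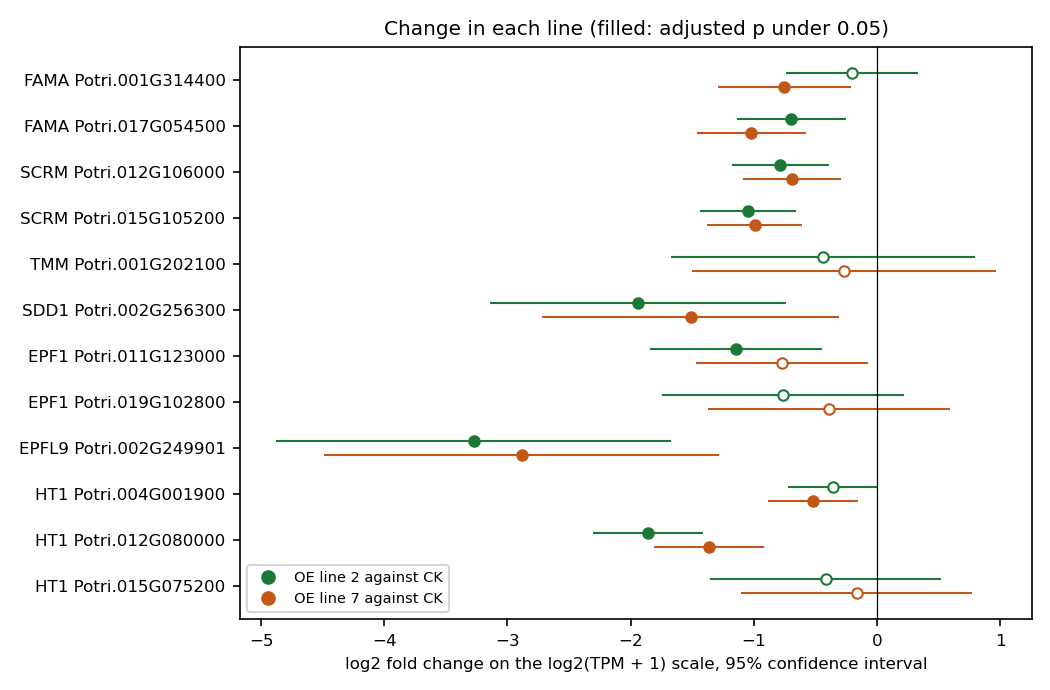
Log2 fold change of each tested copy in line 2 and line 7 against CK, with 95% confidence intervals from limma (n = 4 libraries per group); filled points passed an adjusted p of 0.05. EPFL9 and HT1 Potri.012G080000 lie farthest left of 0 among the copies called in both lines, together with SDD1, while the intervals of TMM span 0.

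Copies of one locus were then compared with each other within each library, a test added after the values were seen. The measure was the log2 ratio of TPM + 1. For 6 pairs of tested copies and 3 contrasts, 18 exact permutation tests were made and adjusted together. HT1 Potri.012G080000 over Potri.015G075200 went from a log2 ratio of 3.57 ± 0.57 in CK (SD, n = 4) to 2.25 ± 0.43 in OE libraries (SD, n = 8). The difference was -1.32 (exact p = 0.00202, the smallest possible, adjusted p = 0.0364), and on this scale every OE library lay below every control. Without the added 1 the TPM ratios overlapped, at 15.4 in line 2 replicate 1 and 13.3 in line 7 replicate 3 against 10.3 in CK replicate 2. HT1 Potri.004G001900 over Potri.012G080000 went from -3.32 ± 0.65 in CK to -2.15 ± 0.46 in OE libraries (exact p = 0.00404, adjusted p = 0.0364). This second difference was 1.17, and 0.74 without CK replicates 1 and 2 (exact p = 0.0667). Both ratios of the main HT1 copy kept their direction and an unadjusted exact p under 0.05 with pseudocounts of 0.1 and 5.

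In FAMA, the log2 ratio of Potri.001G314400 over Potri.017G054500 was 0.99 ± 0.14 in CK (SD, n = 4) and 1.37 ± 0.21 in OE libraries (SD, n = 8). The difference of 0.38 had an exact p of 0.0121 and missed the threshold after adjustment (adjusted p = 0.0727). Without the added 1 the FAMA TPM ratios did not overlap, at 1.86 to 2.34 in CK and 2.72 to 3.81 in OE libraries. With a pseudocount of 5 the difference was 0.16 (exact p = 0.186), and without CK replicates 1 and 2 it was 0.26 (exact p = 0.133). The SCRM copies differed by 0.28 in the same way (exact p = 0.0444, adjusted p = 0.10), and for EPF1 Potri.011G123000 over Potri.019G102800 the difference was -0.38 (exact p = 0.244, adjusted p = 0.338). The remaining HT1 pair differed by -0.15 (exact p = 0.752). The processing notes name Salmon, which divides reads between similar transcripts, so levels of similar copies are uncertain.

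**Figure D4:**
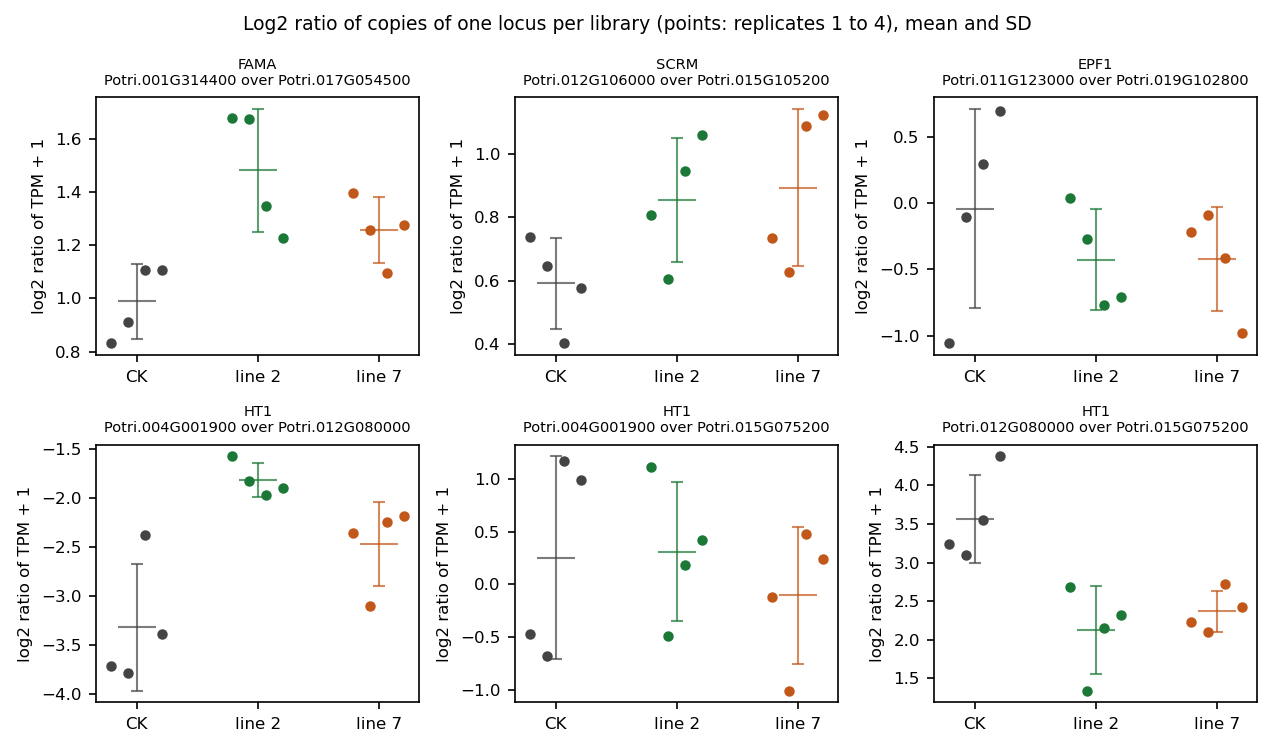
Log2 ratio of TPM + 1 between tested copies of one locus in each library, for 6 pairs. Points are replicates 1 to 4, horizontal marks are means and bars SD (n = 4 per group). For HT1 Potri.012G080000 over Potri.015G075200 all OE libraries lie below all controls on this scale, whereas the plain TPM ratios overlap.

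Within each group the same libraries tended to be high or low for many copies. CK replicate 1 was the highest control for 9 of the 12 tested copies, line 2 replicate 3 the highest of its line for 8, and line 7 replicate 2 the highest of its line for 8. Line 7 replicate 3 was the lowest of its line for 10 copies, CK replicate 3 the lowest control for 9, and line 2 replicate 4 the lowest of its line for 7. TMM, SDD1, EPF1 Potri.019G102800 and EPFL9 each had their highest value in CK replicate 1, line 2 replicate 3 and line 7 replicate 2 of the respective groups. HT1 Potri.004G001900 did not, with its highest values in CK replicate 3, line 2 replicate 1 and line 7 replicate 4.

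Markers of dividing cells moved with this order, and vascular markers did so in part. The summed level of the dividing-cell markers over 10 genes was 77.4, 53.8, 20.3 and 28.6 TPM in CK, 16.4, 9.51, 28.4 and 6.78 TPM in line 2, and 24.2, 30.1, 6.36 and 8.63 TPM in line 7. CK replicate 1, line 2 replicate 3 and line 7 replicate 2 thus also had the highest dividing-cell levels of their groups, and CK replicate 3, line 2 replicate 4 and line 7 replicate 3 the lowest. Summed vascular markers were lowest in the same libraries (444, 143 and 121 TPM). They were highest in line 2 replicate 3 (288 TPM) and line 7 replicate 2 (461 TPM), but in CK replicate 2 (899 TPM) among the controls. Of the 7 dividing-cell genes tested, 6 fell and 0 rose in OE leaves (median log2 FC -1.13), and 1 fell without CK replicates 1 and 2. That 1 was POK2 (Potri.004G145800), at 1.47 to 4.84 TPM in CK and at most 0.981 TPM in OE libraries. It thus passed the filter only through its CK libraries. Among the 6, the cyclin-dependent kinase homolog CDKB2;1 (Potri.002G003400) went from 3.07 ± 1.92 TPM in CK to 1.12 ± 0.66 TPM in OE libraries (adjusted p = 0.0238, or 0.348 without CK replicates 1 and 2). The part of dividing or vascular cells in the lower levels of the stomatal genes was not tested.

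**Figure D5:**
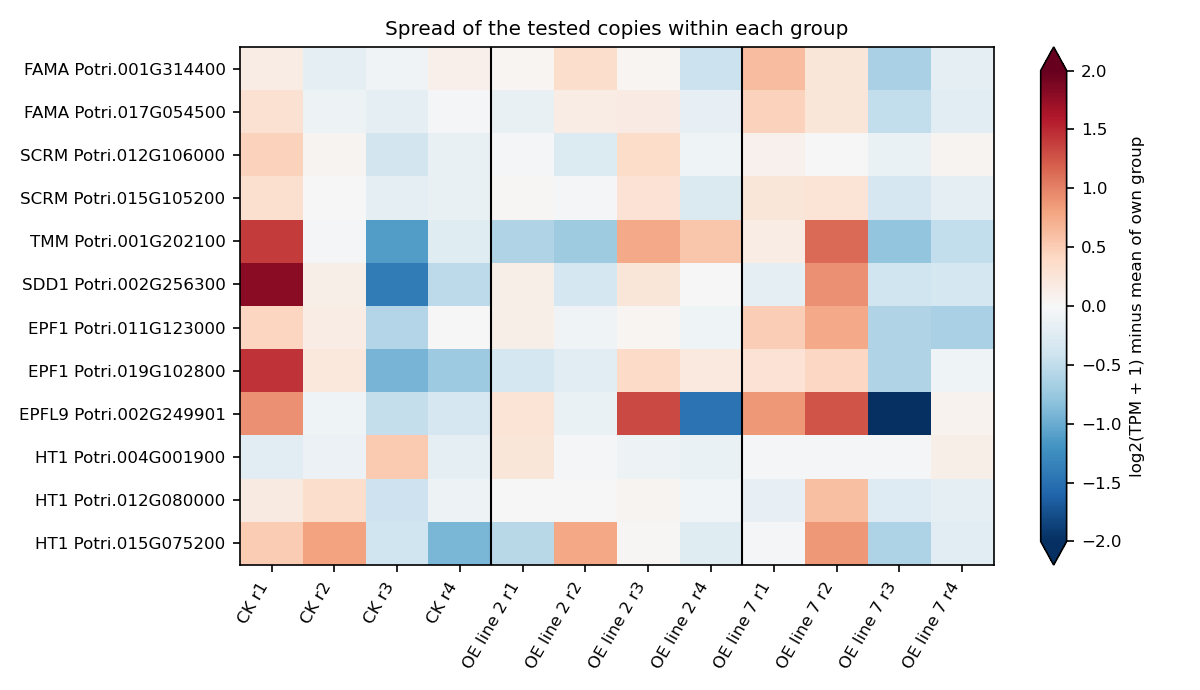
Deviation of each tested copy from the mean of its own group, in log2(TPM + 1), for the 12 libraries (r1 to r4 are replicates; black lines separate groups). TMM, SDD1, EPF1 Potri.019G102800 and EPFL9 are high in CK replicate 1 and line 7 replicate 2, and low in line 7 replicate 3.

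Other genes of the pathway were taken from lists of Arabidopsis loci. Counts of these lists, and of the markers above and below, stand beside 34% lower and 22.1% higher over all tested genes. Without CK replicates 1 and 2, 14.2% of all tested genes were lower. ERL1 Potri.015G132200, EPFL1 Potri.007G095400 and POK2 Potri.004G145800 reached 1 TPM only in CK libraries. SERK2 Potri.007G082300, MPK3 Potri.001G271700 and BLUS1 Potri.009G157300 did so only in OE libraries. These genes passed the filter through the group where they were high. The list counts include them, but no adjusted p is printed for them. Among receptors and co-receptors of the peptides, 6 of 11 tested genes fell and 4 rose (median log2 FC -0.72). ERL1 copies, receptor kinases of the ERECTA family, fell from 10.9 ± 7.503 to 2.21 ± 1.61 TPM (Potri.012G130400, adjusted p = 0.00429) and from 2.66 ± 1.90 to 0.151 ± 0.132 TPM (Potri.015G132200). Here and below CK is given first (SD, n = 4) and OE libraries second (SD, n = 8). The expressed ERECTA copy (Potri.006G220100) fell from 14.2 ± 7.45 to 4.46 ± 2.25 TPM (adjusted p = 0.00743). Co-receptors of the SERK family went both ways. Of 4 tested SERK1 copies 3 fell: Potri.005G083300 from 8.57 ± 2.27 to 4.71 ± 0.74 TPM (adjusted p = 0.00214), Potri.007G082400 from 7.58 ± 1.96 to 4.08 ± 0.92 TPM (adjusted p = 0.00245) and Potri.019G087700 from 8.15 ± 2.29 to 3.93 ± 1.62 TPM (adjusted p = 0.006). By contrast SERK2 rose from 8.15 ± 1.14 to 25.5 ± 4.17 TPM (Potri.003G166100, adjusted p = 1.21e-05) and from 0.603 ± 0.083 to 2.79 ± 0.54 TPM (Potri.007G082300), and BAK1 rose from 14.3 ± 2.33 to 27.7 ± 3.22 TPM (Potri.003G023000, adjusted p = 0.000163). These co-receptors also serve immune and brassinosteroid receptors. Of the 11, 2 fell and 4 rose without CK replicates 1 and 2. The 2 were ERL1 Potri.015G132200, which passed the filter only through its CK libraries, and SERK1 Potri.005G083300. ERECTA was not called without these controls (adjusted p = 0.164).

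In the MAP kinase cascade below the receptors, 7 of 15 tested genes fell and 4 rose (median -0.13, the same as over all genes), or 5 and 5 under median ratio scaling, and 0 and 2 without CK replicates 1 and 2. MPK3 (Potri.001G271700), which passed the filter only through its OE libraries, rose from 0.619 ± 0.268 to 4.62 ± 2.19 TPM. MKK9 (Potri.015G030700) rose from 6.23 ± 1.99 to 15.9 ± 5.35 TPM (adjusted p = 0.00185). A copy of BIN2 (Potri.011G068600), a kinase that links brassinosteroids to the cascade, fell from 67.5 ± 10.2 to 48.5 ± 4.81 TPM (adjusted p = 0.00405, or 0.0851 without CK replicates 1 and 2). The more abundant BIN2 copy, Potri.004G059000, was at 142.9 ± 12.8 TPM in CK and 131.4 ± 19.8 TPM in OE libraries (adjusted p = 0.405). The other genes called lower were copies of YDA and MPK6 (adjusted p from 0.0057 to 0.0248), while MPK6 Potri.017G010200 was not called (adjusted p = 0.571).

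Of the other EPFL peptides and the EPF2-processing protease CRSP, 3 of 6 tested genes fell and 0 rose (median -0.77). Without CK replicates 1 and 2 only 1 was left, EPFL1 Potri.007G095400, which passed the filter only through its CK libraries. EPFL1 fell from 3.11 ± 2.18 to 0.116 ± 0.165 TPM (Potri.007G095400) and from 4.48 ± 1.98 to 1.58 ± 1.35 TPM (Potri.005G073700, adjusted p = 0.0166). A copy of CRSP (Potri.003G189200) fell from 1.91 ± 0.81 to 0.596 ± 0.316 TPM (adjusted p = 0.00365). The more abundant CRSP copy, Potri.005G243000, was at 16.4 ± 8.38 TPM in CK and 9.74 ± 4.18 TPM in OE libraries and was not called (adjusted p = 0.0908). Among partners and fate factors, 4 of 8 fell and 0 rose (median -0.40), or 4 and 2 under either median ratio scaling or quantile normalization. They included both copies of MYB88, which limits divisions of the guard mother cell, at 3.57 ± 1.08 against 2.12 ± 0.38 TPM (Potri.008G148400, adjusted p = 0.0126) and 2.18 ± 0.71 against 1.05 ± 0.23 TPM (Potri.010G093000, adjusted p = 0.00507). The polarity gene BASL, of the earliest lineage cells, was listed at 0 in 9 of the 12 libraries. Only 1 gene of this list fell without CK replicates 1 and 2, and it was no MYB88 copy (adjusted p = 0.197 and 0.0998).

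Among cell cycle genes tied to the lineage, both tested genes fell, also without CK replicates 1 and 2. CYCD5;1 (Potri.007G055300) went from 5.59 ± 3.11 to 1.09 ± 0.78 TPM (adjusted p = 0.00173) and the retinoblastoma-related gene RBR (Potri.001G031400) from 15.8 ± 4.97 to 7.59 ± 1.03 TPM (adjusted p = 0.000901). Of the light inputs, 7 of 11 fell and 0 rose (median -0.45), and 2 fell without CK replicates 1 and 2. PIF4, a light- and temperature-responsive factor that represses SPCH at high temperature, fell from 26.9 ± 6.67 to 7.21 ± 2.60 TPM (Potri.002G055400, adjusted p = 6.37e-05) and from 87.3 ± 9.43 to 47.3 ± 8.24 TPM (Potri.005G207200, adjusted p = 0.000537). The photoreceptor gene PHYB (Potri.010G145900) fell from 27.2 ± 4.56 to 17.7 ± 2.64 TPM (adjusted p = 0.00388, or 0.0754 without CK replicates 1 and 2).

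Around HT1, 4 of 14 tested genes of the carbon dioxide and abscisic acid pathway fell and 1 rose (median -0.15). Over all tested genes 34% fell and 22.1% rose. Without CK replicates 1 and 2, 2 of the list fell and 1 rose. With all libraries the list counts were 4 and 2 under median ratio scaling, and 5 and 3 under quantile normalization. A copy of OST1 (Potri.007G096400), a kinase that activates the anion channel SLAC1, fell from 39.7 ± 9.77 to 8.44 ± 2.66 TPM (adjusted p = 4.02e-05). The other tested OST1 copies were not called. Potri.009G106900 was at 38.4 ± 3.45 TPM in CK and 40.1 ± 2.47 TPM in OE libraries (adjusted p = 0.518). The log2 FC was 0.30 for Potri.003G084100, 0.23 for Potri.005G162500 and -0.27 for Potri.004G145500 (adjusted p from 0.0709 to 0.158). Potri.003G084100 was called higher under median ratio scaling (adjusted p = 0.0284). CBC1 (Potri.001G351300), a kinase that acts with HT1, fell from 2.57 ± 0.30 to 1.30 ± 0.38 TPM (adjusted p = 0.00191). A copy of MPK4 (Potri.014G088500), a MAP kinase that inhibits HT1, rose from 5.95 ± 1.19 to 11.5 ± 1.34 TPM (adjusted p = 0.000178). The more abundant MPK4 copies were not called. Potri.003G131775 was at 31.5 ± 2.94 TPM in CK and 30.7 ± 2.65 TPM in OE libraries (adjusted p = 0.777). Potri.002G162500 was at 20.6 ± 2.82 TPM in CK and 25.4 ± 6.56 TPM in OE libraries (adjusted p = 0.266). The SLAC1 copy, below the filter, averaged 0.703 ± 0.073 TPM in CK and 0.222 ± 0.085 TPM in OE libraries.

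Markers of mature guard cells were present in every group. Their summed level over 12 genes was 155 to 168 TPM in CK and 88.0 to 128 TPM in OE libraries, without overlap, and 4 of 10 tested genes fell and 1 rose (median -0.41). Those counts were also 4 and 1 without CK replicates 1 and 2, and 4 and 2 under either scaling. The potassium channel gene KAT2 (Potri.004G132200) fell from 13.4 ± 2.41 to 3.49 ± 1.38 TPM (adjusted p = 0.000155) and a copy of the guard cell factor SCAP1 (Potri.007G058200) from 5.73 ± 1.28 to 1.08 ± 0.86 TPM (adjusted p = 0.000739). The more abundant SCAP1 copy, Potri.007G038100, was at 16.3 ± 3.62 TPM in CK and 23.5 ± 7.33 TPM in OE libraries (adjusted p = 0.0648), and it was called higher in line 7 (adjusted p = 0.0266) and, for both lines, under median ratio scaling (adjusted p = 0.0109). The 1 gene counted as rising was a copy of BLUS1 (Potri.009G157300), a kinase of the blue light response of guard cells. It went from 0.708 ± 0.098 to 1.51 ± 0.35 TPM and passed the filter only through its OE libraries. The more abundant BLUS1 copy, Potri.008G163800, was at 3.58 ± 0.82 TPM in CK and 4.63 ± 1.35 TPM in OE libraries and was not called (adjusted p = 0.182). A copy of MYB60 (Potri.019G045900), a regulator of stomatal opening, fell by 2.71 on the log2 scale (adjusted p = 2.38e-05). The other copy, Potri.013G067500, was at 66.5 ± 12.9 TPM in CK and 59.3 ± 8.72 TPM in OE libraries (adjusted p = 0.396).

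Markers of other leaf cell types were also counted, beside the 34% lower and 22.1% higher of all tested genes. Their part in the results above was not tested. Epidermal markers summed to 636 to 869 TPM over 17 genes in CK and to 291 to 737 TPM in OE libraries, with 4 of 10 tested genes lower and 0 higher (0 and 0 without CK replicates 1 and 2, and 4 and 1 under median ratio scaling). HDG2 (Potri.002G230200), an epidermal factor that promotes stomatal formation, fell from 26.1 ± 9.85 to 10.7 ± 4.30 TPM (adjusted p = 0.0091), while its other tested copy, Potri.014G152000, was at 17.4 ± 5.37 TPM in CK and 17.8 ± 1.69 TPM in OE libraries (adjusted p = 0.697). Mesophyll markers, the cell type that makes EPFL9 in Arabidopsis, summed to 47965 to 57472 TPM over 8 genes in CK and to 24774 to 55378 TPM in OE libraries, with 3 of 7 lower and 0 higher (1 and 0 without CK replicates 1 and 2). LHCB2.1 (Potri.014G165100), a light-harvesting protein gene, fell from 7444 ± 777 to 2260 ± 494 TPM (adjusted p = 4.67e-05), and the other genes called were copies of LHCA1. The tested copies of RBCS1A and RCA were not called (adjusted p from 0.289 to 0.836). RBCS1A Potri.004G100000 was at 12424 ± 1882 TPM in CK and 9977 ± 3388 TPM in OE libraries. RCA Potri.010G200500 was at 9736 ± 1232 TPM in CK and 8610 ± 1920 TPM in OE libraries. Vascular markers fell in 21 of 23 tested genes (median -1.25), or 6 without CK replicates 1 and 2, and summed to 444 to 899 TPM over 26 genes in CK and 121 to 461 TPM in OE libraries. No gene of these marker lists was at 0 in all libraries.

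For members with a mean TPM of at least 5, the 2 annotated genes of most similar pattern were found among 15850 candidates, as the Pearson correlation of deviations from group means over the 12 libraries. This measure leaves out differences between groups, and libraries share composition. The genes most like EPFL9 were the homologs of the co-chaperone BAG1 (Potri.015G135500, r = 0.984) and of FAH1, named as fatty acid hydroxylase 1 (Potri.001G463800, r = 0.977). For SCRM Potri.015G105200 they were a BTB/POZ protein (Potri.001G100900, r = 0.986) and a homolog of the histone variant H2AX (Potri.005G040700, r = 0.983). For SCRM Potri.012G106000 they were a protein phosphatase 2C (Potri.007G058700, r = 0.965) and the brassinosteroid-related bHLH factor BIM1 (Potri.012G065000, r = 0.955). FAMA Potri.001G314400 was closest to an alkenal reductase (Potri.007G143600, r = 0.930), and HT1 Potri.012G080000 to a 2-oxoglutarate-dependent dioxygenase (Potri.003G070100, r = 0.955).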

How the data were processed

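The authors deposited TPM values for 34749 genes in 12 libraries, per the file headers and near-equal column totals. Per the submitters' processing notes, cutadapt, FastQC and Salmon were used; no source used here gives versions, settings, genome build or annotation. Poplar genes carry the name of the Arabidopsis locus the table pairs them with. Per the labels' protocols, cDNA was primed with oligo(dT).

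Of these genes, 24926 reached 1 TPM in 4 or more libraries. One limma 3.58.1 model with 3 groups (R 4.3.3, eBayes with trend) on log2(TPM + 1) gave all contrasts, two-sided, with Benjamini-Hochberg adjustment and a threshold of 0.05. Copies below the filter, with at least 4 libraries above 0, had exact two-sided permutation tests, whose smallest p is 0.00202 for 8 against 4 libraries and 0.0286 for 4 against 4. The fit was tested on simulated data. TPM keep no depth, so no counting interval is given.

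The members and lists were chosen with earlier results of these data known. Named genes were all members, up to 3 tested genes of smallest p per list, and the genes most like a member. ERL1, ERECTA, SERK1, BASL, SLAC1, BLUS1, the second copies of SCAP1, HDG2 and MYB60, and which list genes to print were chosen after their values were seen. The same holds for the further copies of OST1, MPK4, BLUS1, BIN2 and CRSP, and for YDA, MPK6, RBCS1A and RCA. Alternatives were pseudocounts of 0.1 and 5, no filter, median ratio scaling, quantile normalization, a replicate block, fitting just the compared groups, and leaving out each library or CK replicates 1 and 2. Tests of copy ratios and list counts under other settings were added after seeing the data.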

Additional observations from a re-analysis of the deposited data

Results flagged for a closer look

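In 63 sets of 4 libraries (21 copies in 3 groups), 10 had a highest or lowest value far from the other libraries of its group, by a criterion that chance meets in about 1 of 20 groups. Where the other 3 libraries are at 0, any value meets it. Line 7 replicate 2 was high for 4 copies. In that library HT1 Potri.012G080000 was at 20.9 TPM (others 11.1 to 11.98 TPM), SDD1 Potri.002G256300 at 3.77 TPM (others 0.931 to 1.25 TPM), SPCH Potri.015G022300 at 0.1 TPM (others 0 to 0.015 TPM) and EPF2 Potri.013G116600 at 0.051 TPM (others at 0). HT1 Potri.004G001900 was at 4.37 TPM in CK replicate 3 (others 2.22 to 2.44 TPM), and its call in both lines together, though not that in line 7, was lost without that library (adjusted p = 0.0585 and 0.042). The same gene was at 1.83 TPM in line 7 replicate 4 (others 1.54 to 1.55 TPM). EPF2 Potri.013G116600 was at 0.048 TPM in line 2 replicate 4 (others at 0). SDD1 Potri.003G118800 was at 0.032 TPM in CK replicate 4 and 0.021 TPM in line 7 replicate 1, and SDD1 Potri.T004700 at 0.098 TPM in CK replicate 4, each with the other libraries of the group at 0.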

How the results depend on the processing

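The number of members called in both lines together was 8 of 12 and lay between 6 and 9 of 12 in all alternatives but the fit with no filter, which called 11 of 21. Leaving out CK replicates 1 and 2 moved other counts most: members called went from 7 to 2 in line 2 and from 8 to 4 in line 7, and all genes called went from 13980 to 7430 in both lines, from 12756 to 6885 in line 2 and from 10910 to 5013 in line 7. Leaving out single libraries gave 5 to 9 members in line 7, the 5 without replicate 3 of that line. Under median ratio scaling 7234 genes were higher and 7093 lower in both lines, against 5511 and 8469, and no member changed direction.

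Signs turned only for members that had not passed. Without CK replicates 1 and 2 the log2 FC was 0.33, 0.24 and 0.41 for TMM Potri.001G202100 (both lines, line 2, line 7), 0.25, 0.065 and 0.44 for EPF1 Potri.019G102800, and 0.37, 0.24 and 0.49 for HT1 Potri.015G075200, and the difference of SDD1 Potri.003G118700 was 0.012. Leaving out 1 library gave -0.73 to 0.11, -0.81 to 0.029 and -0.64 to 0.20 for TMM Potri.001G202100, -0.70 to 0.093 for EPF1 Potri.019G102800 in line 7, -0.47 to 0.11 for HT1 Potri.015G075200 in line 7, and -0.46 to 0.16 for the ratio of HT1 Potri.004G001900 over Potri.015G075200. The causes were not tested.

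Replicate numbers are shared by the groups, but the labels do not say what they mark, and 9 of 12 same-numbered pairs had correlated deviations above 0.1 (range -0.47 to 0.41). With the number as a replicate block, 8, 7 and 9 members were called in both lines, line 2 and line 7, and 13745, 12527 and 10763 genes. Libraries correlated best with their own number in 6 of 12 cases. Low copies (SPCH, MUTE, EPF2) lie near 0 TPM, where the pseudocount sets the size of a difference.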
